A study of Sus scrofa with 36 samples.

Results

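The 10 stretches of the pig genome with the largest number of different circRNA junctions in the neonatal heart were described. A circRNA is seen in sequencing data as a back-splice junction, a read in which the 3′ end of an exon (the donor) is joined to the 5′ end of the same or an upstream exon (the acceptor), and the span is the genomic distance between these 2 sites. Junctions on numbered chromosomes with a span of 500 to 50000 bases and a count in at most 27 of the 36 libraries were placed, by chromosome, strand and start, in bins of 500000 bases. The loci were chosen by the number of distinct junctions detected in the 36 libraries: the 10 bins with the most were kept, and the ages played no part. They hold 1191 of the 48111 junctions of the series and 1191 of the 40498 junctions that meet these conditions.

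Hearts of 24 domestic Yorkshire pigs of both sexes, fed normally, were studied at P1, P3, P7 and P28 (postnatal day 1, 3, 7 or 28), 6 pigs at each age. Whole heart tissue was used, with myocytes and nonmyocytes, so fewer cells of a type and less RNA per cell cannot be told apart. Batch nv1 (12 pigs, sequenced by Novogene) was rRNA-depleted and digested with RNase R to remove linear RNA, batch nv2 held total RNA of new samples of the same 12 pigs, and batch cd (CD Genomics) held total RNA of the other 12 pigs. Before testing, each Novogene pig's 2 libraries were added together, and the P28 Novogene pig whose nv1 library had 1604 back-spliced reads was left out, which left 6, 6, 6 and 5 pigs.

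In general, the spliceosome makes a circRNA when a downstream donor reaches back to an upstream acceptor instead of going forward, which competes with linear splicing of the same transcript. Long genes with many exons can pair one acceptor with several donors and give families of overlapping circles. Such circles lack free ends and are stable, and some genes of the heart muscle are known for a large output of them.

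The libraries held 15730 to 65478 back-spliced reads (the 11 other nv1 libraries), 10819 to 17027 (nv2) and 8636 to 49042 (cd). Among the cd libraries, 5 stood apart (2 of P3, 1 of P7 and 2 of P28), where 6.50% to 17.1% of the detected junctions had a single read, against 25.7% to 44.1% in the other 7 cd libraries. These 5 had 4.75 to 15.0 reads per detected member and the other 7 had 1.75 to 3.93. Results that turned without these 5 libraries are given with and without them. In the gene counts of batch cd, the 6 heart muscle genes found in the table were between 6724 and 26553 CPM (reads scaled to a common library size) in every library. The liver genes AHSG, TF, HRG and KNG1 were at 0.648 or below and the fast skeletal muscle gene ACTN3 at 1.44 or below. This gene table stops within chromosome 2, so CPM here is relative to the genes it holds.

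The 10 loci lie on 7 chromosomes and are numbered by their number of members. In Sscrofa10.2 positions, counted from 1, locus 1 is chr14:57581680-57935212 on the minus strand, where the first and last position are the outer ends of its members. Locus 2 is chr7:73046202-73299428 (plus), locus 3 is chr7:91884279-92001410 (minus) and locus 4 is chr10:59609714-59711628 (plus). Locus 5 is chr6:88173912-88400758 (plus), locus 6 is chr6:96504635-97011917 (plus) and locus 7 is chr7:33504832-34000487 (plus). Locus 8 is chr1:181028804-181485339 (minus), locus 9 is chr3:109625600-109920084 (plus) and locus 10 is chr13:90759890-91040099 (minus). Genes and sequences of this build were not used here, so the loci are given by position and no exon or host gene is named.

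Locus 1 had 257 members, 21.6% of all 1191, and locus 2 had 169. Locus 3 had 124, locus 4 had 96, locus 5 had 95, loci 6 and 7 had 93 each, locus 8 had 90, locus 9 had 88 and locus 10 had 86. The next bin, on chromosome 1 from 134.5 Mb, had 85 and fell just outside. The 4033 bins with at least 1 such junction had a median of 6. On the presence limit, 1 member had a count in 27 libraries, while 7 junctions of these bins with the same span range were left out with a count in 28.

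At loci 1, 3 and 4 all members overlapped in a single chain. Locus 1 extended over 353.5 kb, locus 3 over 117.1 kb and locus 4 over 101.9 kb. The other loci held 2 to 6 separate chains, and in locus 6 the largest of its 3 chains, chr6:96504635-96616416, had 85 of the 93 members. Locus 7 was the most divided, with 6 chains of which the largest had 65 members.

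**Figure D1:**
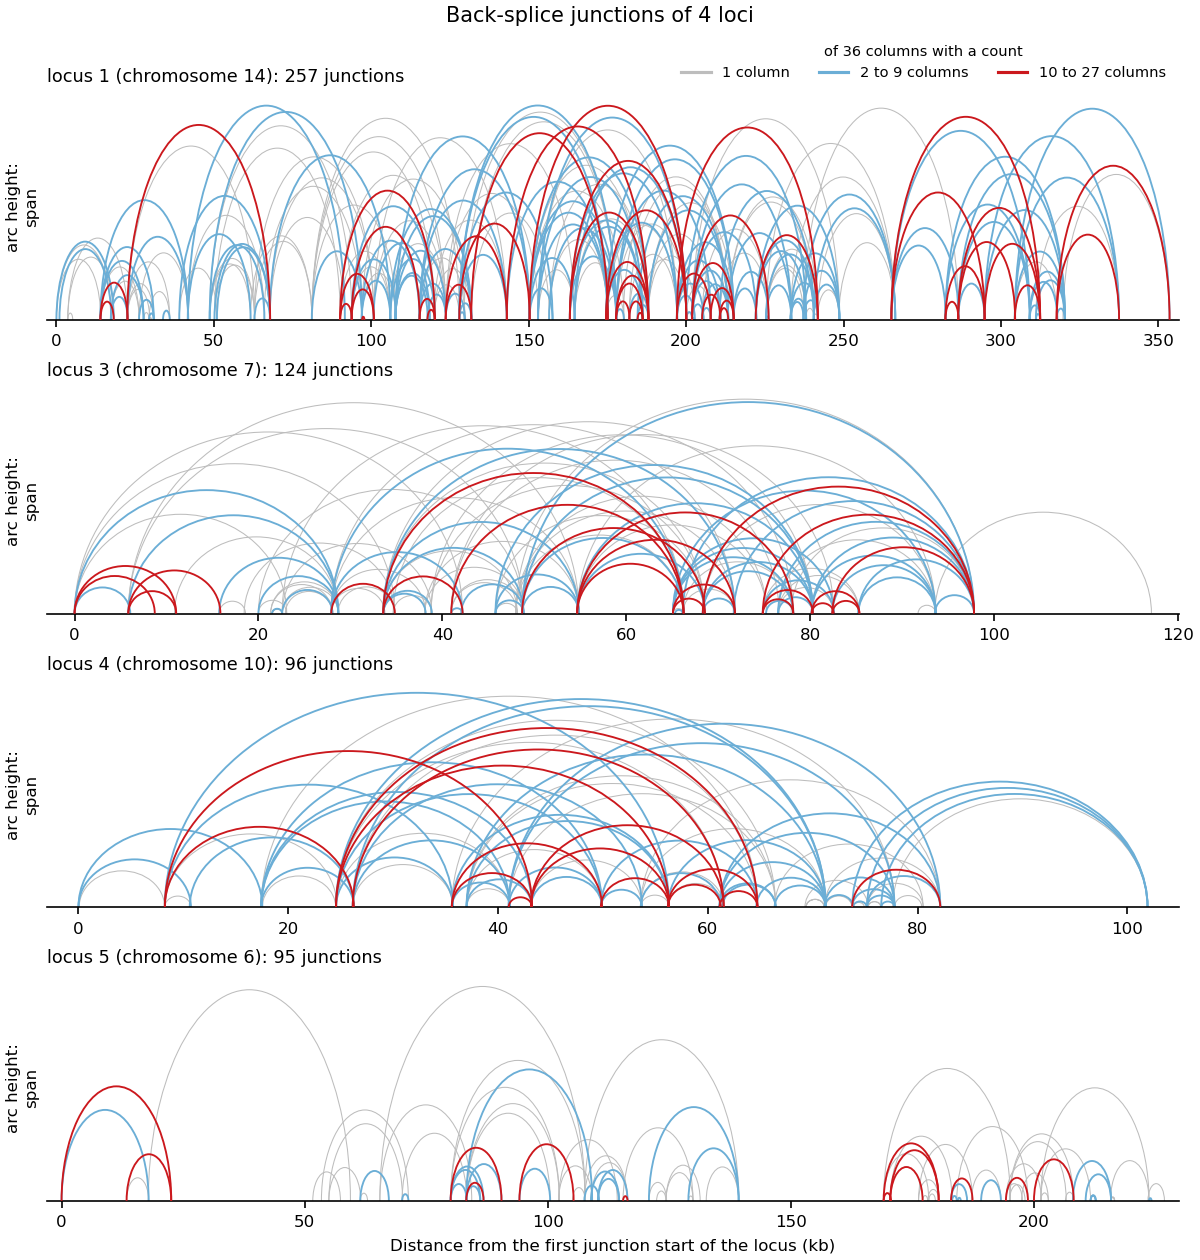
Back-splice junctions of loci 1, 3, 4 and 5, drawn as arcs from start to end along the distance (kb) from the first junction start of each locus; arc height is proportional to the span within a panel, and colour gives the number of libraries with a count. The 257, 124 and 96 junctions of loci 1, 3 and 4 form unbroken chains, and those of locus 5 fall into 2 groups.

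The members reused splice sites to a degree that differed between loci. Locus 7 had the fewest members per acceptor, with 93 members on 51 acceptors and 57 donors. At locus 1, the 257 junctions used 76 acceptors and 79 donors, and they were 29.4% of the pairs of a start and a downstream end that fit the span range. Over the 10 loci this share ran from 12.6% at locus 5, where 40 of the 63 donors were used by 1 member each, to 41.7% at locus 9. Of all members, 76.2% shared both their start and their end with another junction that met the conditions, against 42.0% of the 39307 such junctions elsewhere. Dense bins were chosen, which by itself raises this share, so no test was made.

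The distances between splice sites were also looked at. The study's junctions were matched to annotated transcripts, so that sites at exon borders are part of how the files were made, and the window of distances was set to that of exons. At locus 1, 60 of the 88 starts of all junctions in the bin had a junction end 40 to 300 bases downstream, at a median of 114 bases. The count was 37 of 52 starts at locus 2 and 27 of 42 at locus 3, and it was lowest at locus 10 with 13 of 37. At most starts of loci 1 to 3, a junction end thus lay at an exon-sized distance. A junction of at most 300 bases could supply its own end.

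Single acceptors served whole fans of circles. Partners and reads in the fans are given for members. At locus 3, the acceptor at position 91982115 was joined to 12 donors, with spans from 4262 to 49837 bases and 248 reads in the 36 libraries. Of these 12 junctions, chr7:91959137-91982115 had 109 reads in 23 libraries, whereas chr7:91932279-91982115 had 1 read. The acceptor at 57769714 of locus 1 was joined to 9 donors with 186 reads, of which the junction of 13476 bases had 66. At locus 6, the acceptor at 96559709 was joined to 9 donors with 289 reads, and 133 of them were on chr6:96559709-96579531.

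Among the members of these fans of loci 1, 3 and 6, a junction of intermediate span had the most reads. The acceptor at 59634269 of locus 4 was joined to 8 donors with 188 reads, 80 of them on the junction of 31746 bases. At loci 7 and 9 the shortest junction led the acceptor with the most donors, with 62 reads on a span of 2875 bases at locus 7 and 75 reads on a span of 1780 bases at locus 9. Junctions above the presence limit used some of the same acceptors with more reads. At the acceptor of locus 4, chr10:59634269-59652952 had 275 reads in 32 libraries, and at that of locus 3, chr7:91976025-91982115 had 1462 reads in 33 libraries and chr7:91938950-91982115 had 402 in 34. At the acceptors of loci 1 and 6 no junction was above the limit. Donors also had several partners, and the donor at 109920084 of locus 9, used by 7 acceptors, carried 307 reads, which was 27.3% of the member reads of that locus. By contrast, the acceptor with the most donors at locus 10, at 90956856, had 8 donors with 16 reads in all.

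**Figure D2:**
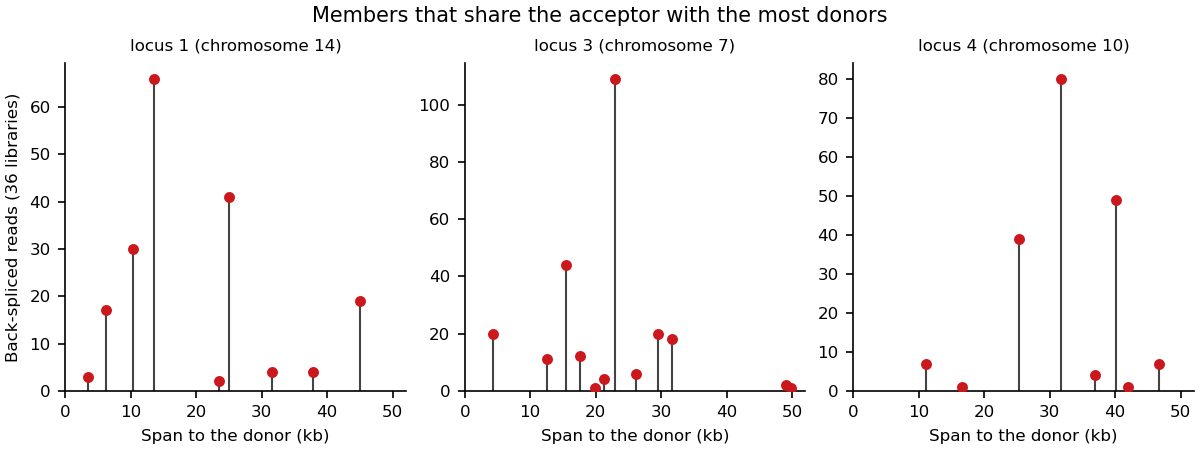
Back-spliced reads in the 36 libraries (y axis) against the span in kb (x axis) for the members that share the acceptor with the most donors at loci 1, 3 and 4; junctions in more than 27 libraries or over 50000 bases are not drawn. The acceptors are joined to 9, 12 and 8 donors, and among these members 1 of intermediate span leads in each, with 66, 109 and 80 reads.

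Most members were rare. Of the 1191, 542 had a count in 1 library and carried 7.44% of the 13811 member reads, while the 169 with a count in 10 or more libraries carried 40.1% (10 to 19 libraries) plus 23.9% (20 to 27). Single-library members were 45.5% of the members and 49.4% of the other junctions that met the conditions. Loci 10 and 5 had the most, 62.8% and 60.0%, and locus 1 the fewest, 35.0%. Members had 11.6 reads each on average against 9.70 elsewhere, and a median span of 12018 bases against 8391.

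Among the members of locus 1, the first by reads, chr14:57886068-57894112 with 139 reads, had 3.95% of the member reads. It took 25 members to reach 50% of the member reads of locus 1 and 16 at locus 2, but 6 at locus 5 and 7 at locus 10. At locus 10, chr13:90959930-90963935 alone had 18.3% of the member reads.

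**Figure D3:**
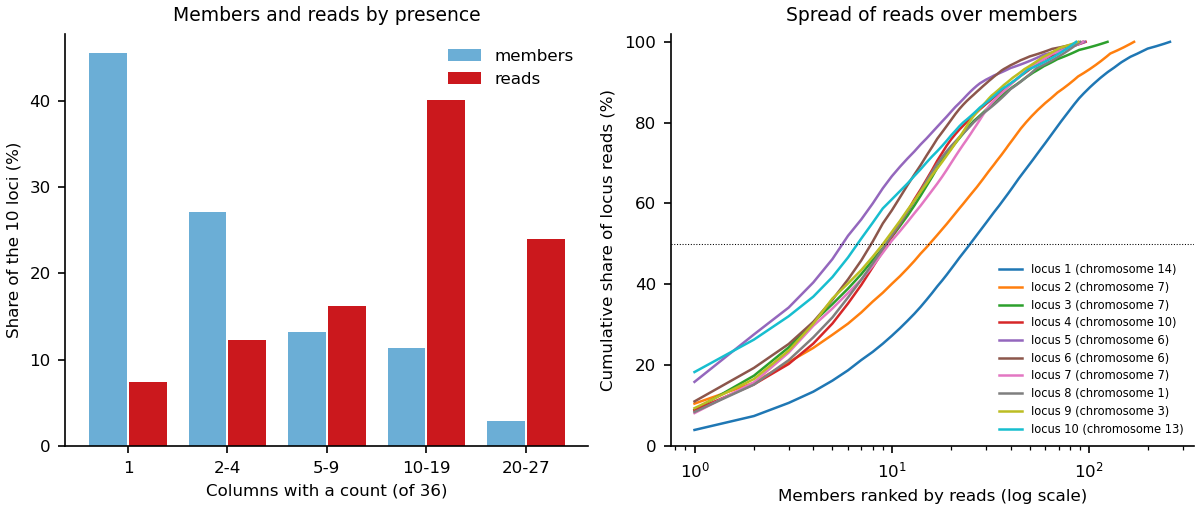
Left, share (%) of the 1191 members and of their 13811 reads by the number of libraries with a count. Right, cumulative share (%) of a locus's reads against its members ranked by reads (log axis), with a dotted line at 50%; locus 1 reaches it with 25 members and locus 5 with 6.

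The rare junctions stood beside common ones that the presence limit had left out. At locus 1, members had 19.8% of the reads of the bin, and 21 junctions with a count in more than 27 libraries had 13775 reads. The first of these, chr14:57846855-57848109, spanned 1255 bases and had 5573 reads in all 36 libraries, 31.4% of the reads of the bin. All 391 junctions of this bin had 2.01% of the 883850 back-spliced reads of the series. At locus 1, 108 junctions of over 50000 bases were also left out, the longest of 245883 bases, and 76 of them were seen in 1 library.

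Common junctions were few or none at some loci. Members had 99.4% of the bin's reads at locus 7 and 98.6% at locus 2, and no junction of either locus was in more than 27 libraries. They had 23.2% at locus 4, 38.5% at locus 8 and 40.4% at locus 3, where 9, 3 and 4 common junctions had 4096, 833 and 2491 reads. In total, 276 members shared a start or an end with a junction seen in more than 27 libraries.

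Whether a member was seen again in other pigs followed its reads. Of the 212 members with 10 or more reads in the Novogene pigs, 190 (89.6%) also had a count in the cd pigs, whereas of the 532 with 1 or 2 reads 84 (15.8%) did. In all, 428 members were seen by both companies, 248 at all 4 ages and 90 in 12 or more of the 23 pigs, while 535 were seen in 1 pig. Of the members in a total RNA library (nv2), a median of 40.3% also had a count in the RNase R library (nv1) of the same pig, with a range of 23.6% to 56.9% over 11 pigs. The median was 35.7% in nv1 libraries of other pigs of the same age and 37.4% in those of another age. An nv1 library shared more with its own pig than, on average, with other pigs of its age in 6 of 11 cases.

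The members of loci 1, 4 and 5 had a lower share of the reads in nv1 than in nv2 in every Novogene pig. The 2 batches differ in RNase R treatment, tissue sample, sequencing round and depth, and these cannot be told apart here. In reads per 10000 back-spliced reads, the median of the members of locus 1 was 33.3 in nv1 and 54.5 in nv2, and nv1 was lower in 11 of 11 pigs. The other junctions of the same bin had medians of 198.1 in nv1 and 150.2 in nv2, with nv1 higher in 11 of 11 pigs. Locus 1 with all its junctions was higher in nv1 in 10 of 11. Members were split from the other junctions mainly by presence over libraries that include nv1 and nv2. The contrast between members and other junctions can thus be partly set by the rule. At locus 1, 1 of the other junctions had 5573 of their 14223 reads in the 36 libraries. The members' medians were 10.7 and 19.3 at locus 4 and 9.77 and 18.5 at locus 5, again with nv1 lower in 11 of 11. Of all bins with at least 500 reads, 8.82% were lower in nv1 in all 11 pigs, and the median log2 ratio of nv1 to nv2 over these bins was -0.07, against -0.70 at locus 1, -0.61 at locus 4 and -0.96 at locus 5. At locus 4 the other junctions were lower in nv1 in 11 of 11 pigs as well, and at locus 5 in 8 of 11. The members of locus 8 were lower in nv1 in 8 of 11 pigs while its other junctions were higher in 11 of 11. The limit of the rule holds here too, and 3 common junctions had 833 of the 875 reads of these others. The members of locus 2 were lower in nv1 in 10 of 11 pigs, with medians of 13.6 and 21.1 and a median log2 ratio of -0.55, and those of locus 9 in 7 of 11. For the members of loci 3, 6, 7 and 10, nv1 was the higher of the 2 in 5 of 11 pigs.

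Change over the ages was tested on the member reads summed per locus, among 2515 bins with at least 3 reads in at least 10% of the pigs, with edgeR's quasi-likelihood test, TMM normalization and the company as a covariate. None of the 10 loci was called at an adjusted p under 0.05 in P1 versus P3, P1 versus P7 or P1 versus P28, where 0%, 0% and 0% of all bins were called, nor over the 4 ages, where 0.0795% of the bins were called. None had an unadjusted p under 0.05 either, compared with 6.32%, 3.54%, 8.35% and 7.36% of the bins. DESeq2 called none at an adjusted p under 0.05 and had 1 locus, in P1 versus P3, at an unadjusted p under 0.05. Each later age overlapped P1 at every locus. The share of all bins with such an overlap is not given here, so this only describes the loci.

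Levels below are reads per 10000 back-spliced reads after TMM scaling, summed over the members of a locus, and depend on how many members it has. Locus 1 ranged from 30.9 to 47.9 in the 6 P1 pigs (median 40.1). In the 5 P28 pigs it was 61.1, 48.0, 29.7, 45.3 and 36.4, so that 2 of them were above and 1 was below all P1 pigs. The log2 change from P1 to P28 was 0.22 (SE 0.16, 95% interval -0.09 to 0.52, adjusted p = 0.770), which leaves changes from 0.942-fold to 1.44-fold within the interval. This was the narrowest of the 10 intervals in P1 versus P28.

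Locus 8 was the lowest in P28 relative to P1. The 6 P1 pigs ranged from 1.87 to 11.6 with a median of 8.14, and the 5 P28 pigs had 5.31, 5.11, 5.16, 3.54 and 2.00. All 5 P28 pigs were below the P1 median and none was below the lowest P1 pig. The log2 change was -0.79 (SE 0.47, 95% interval -1.70 to 0.12, adjusted p = 0.692), and fitting the companies separately gave -0.80 for Novogene and -0.78 for cd.

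Locus 6 was also lower at P28. It ranged from 12.0 to 32.2 in P1 (median 19.3), and its P28 values were 17.1, 8.26, 17.6, 11.7 and 19.4, 2 of them below all P1 pigs. The log2 change was -0.44 (SE 0.25, 95% interval -0.93 to 0.06, adjusted p = 0.690). The highest P1 value, 32.2, came from 1 cd pig.

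Locus 4 was tightly grouped at P28, with 17.6, 14.9, 18, 17.9 and 16.7 in the 5 pigs, all above the P1 median of 12.5 but within the P1 range of 9.33 to 19.8. Its log2 change was 0.36 (SE 0.29, 95% interval -0.20 to 0.93, adjusted p = 0.800). Fitted by company it was 0.67 for cd and -0.056 for Novogene, and the difference between the companies was not tested. With all junctions of the bin, the common ones included, it was 0.49 with an adjusted p of 0.218.

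For locus 10, the largest difference was at P3. The P1 pigs ranged from 3.70 to 11.9 (median 7.26) and the P3 pigs from 1.2 to 8.23 (median 4.33), with 2 of 6 below all P1 pigs. The log2 change from P1 to P3 was -0.82 (SE 0.44, 95% interval -1.69 to 0.04, adjusted p = 0.768). In the cd pigs of P3 its values rested on 6, 19 and 6 reads, and the 19 reads were all from 1 junction.

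For the other 5 loci in P1 versus P28, the log2 change was 0.34 (95% interval -0.25 to 0.92) at locus 9, 0.31 (-0.36 to 0.98) at locus 7, 0.11 (-0.35 to 0.56) at locus 3, 0.07 (-0.52 to 0.66) at locus 5 and 0.03 (-0.49 to 0.54) at locus 2. The mean of locus 2 was 16.3 in P1 and 15.9 in P28, so its fitted sign, with company as covariate, is opposite to that of the means. Without the 5 cd libraries with few single counts, the change of locus 7 was -0.24, and its 2 highest P28 values, 20.2 and 17.0, came from those libraries. In that setting the sign also turned at loci 2, 5 and 10, where it was -0.016, -0.016 and -0.012.

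The values of the 10 loci are set beside those of all bins as a description. In P1 versus P3 all 10 changes were below 0 with a median of -0.21, while the median of all 2515 bins was -0.30 and 64.9% of the bins were below 0. In P1 versus P7, 9 of 10 were below 0 with a median of -0.14 against -0.15, and 57.46% of all bins were below 0. In P1 versus P28, 8 of 10 were above 0 with a median of 0.10 against -0.22, while 58.5% of all bins were below 0. Without the 5 cd libraries with few single counts, 7 of 10 were below 0 in P1 versus P3, with a median of -0.12 against -0.11 over all bins, and 4 of 10 were above 0 in P1 versus P28, with a median of -0.014 against -0.15. These 3 comparisons share their P1 pigs.

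**Figure D4:**
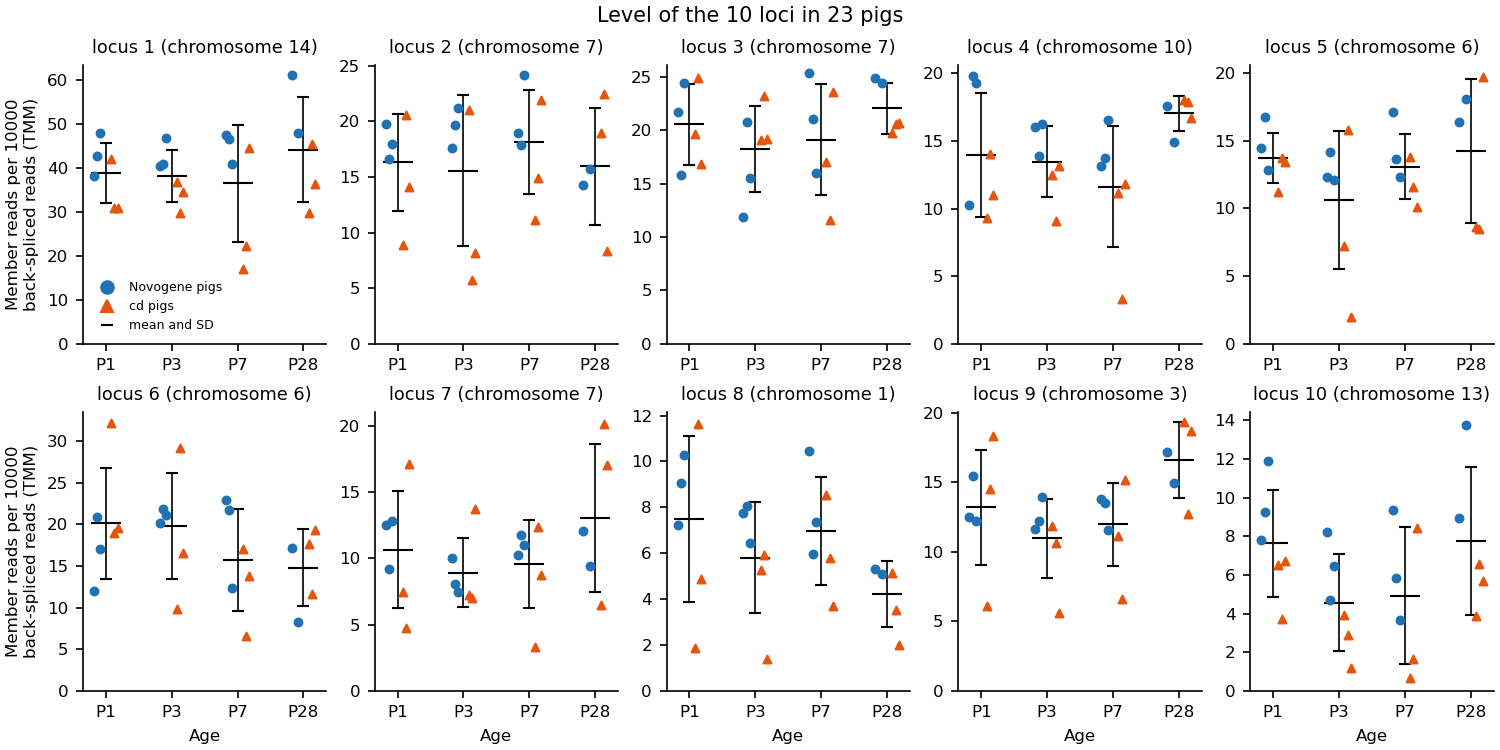
Member reads per 10000 back-spliced reads (TMM scaled) of the 10 loci at P1, P3, P7 and P28; each point is a pig (circles Novogene, triangles cd) and the black marks are the mean and SD over 6, 6, 6 and 5 pigs. At every locus the pigs of each later age overlap those of P1, and the share of all bins with such an overlap is not given.

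**Figure D5:**
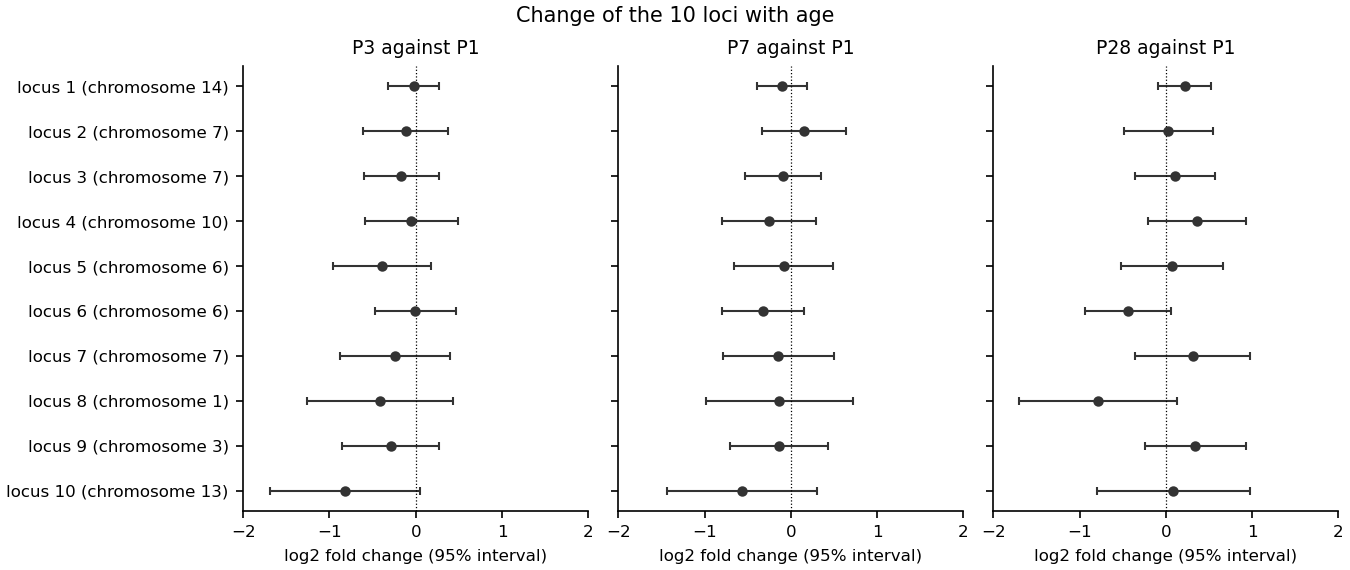
Log2 change of the 10 loci from P1 to P3, P7 and P28 (points) with 95% intervals from the edgeR fit (bars). All 30 intervals include 0; locus 1 has the narrowest in P28 against P1, -0.09 to 0.52.

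The ages overlapped in the number of members seen. Expected numbers of members at a common depth of 8636 reads had medians of 86.5 at P1, 88.9 at P3, 85.6 at P7 and 79.5 at P28 over the 10 loci, and single pigs ranged from 50.9 to 107. The companies differed in this number, and P28 has 2 Novogene pigs where the other ages have 3. In Novogene pigs the medians at the common depth were 97.9, 95.2, 100.2 and 100.3 in order of age, and in cd pigs 80.0, 51.0, 67.9 and 69.9. The cd value of P3 rests on 2 of the 5 libraries with few single counts, at 50.9 and 51.0, and the third cd pig of P3 was at 83.0. That of P28 also rests on 2 of them, at 69.9 and 65.4, and the third cd pig of P28 was at 79.5. At locus 1, the Novogene pigs had 21.9 to 31.7 members at that depth and the cd pigs 11 to 23.2.

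The member with the most reads differed between ages at every locus. At loci 3, 7, 8 and 9 a different junction had the most reads at each of the 4 ages. At locus 3 these were chr7:91959137-91982115 at P1 with 33 reads, chr7:91884279-91895327 at P3 with 75, chr7:91917856-91950519 at P7 with 33 and chr7:91964457-91969641 at P28 with 64. The reads were summed over pigs, and 1 pig often set the order: of the 40 leading members over 10 loci and 4 ages, 17 had more than 50% of their reads from 1 pig. At locus 8, all 20 reads of the P3 leader came from 1 pig, and at locus 1, 39 of the 41 reads of the P3 leader did. The differences between ages were not tested. At loci 2, 4, 5, 6 and 10 the leader was shared by 3 of the 4 ages.

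Single junctions were tested among the 6604 with at least 3 reads in at least 10% of the pigs, of which 190 are members. A member that passes this filter through 1 age alone has to differ, so the counts that follow describe the tested members and do not stand for all 1191. At the thresholds of the study (p up to 0.05 without adjustment, log2 change beyond 0.5 in either direction), 17 of the 190 (8.95%) were called in P1 versus P3, against 10.18% of all junctions tested. In P1 versus P7, 11 (5.79%) were called against 5.89%, and in P1 versus P28, 15 (7.89%) against 11.92%. None of the members passed an adjusted p under 0.05 in any of the 3, where 0, 0 and 4 of all junctions did (0%, 0% and 0.0606%).

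In P1 versus P28, 4 of the 15 were higher and 11 lower at P28, compared with 3.36% and 8.56% of all junctions tested. In P1 versus P3, 4 were higher and 13 lower (2.41% and 7.77% of all), and in P1 versus P7 8 were higher and 3 lower (2.7% and 3.2% of all). The median log2 change of the 190 in P1 versus P28 was -0.06, against -0.30 over all junctions. It was -0.46 against -0.44 in P1 versus P3 and -0.15 against -0.21 in P1 versus P7. Locus 1 had 51 of the tested members and 4 of the 15, with 2 in each direction.

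The junctions with the smallest p in P1 versus P28 had few reads per pig. The junction chr6:96541693-96559830 of locus 6 had 0, 5, 3, 6, 4 and 9 reads in the P1 pigs and 1, 0, 0, 0 and 0 in the P28 pigs (Novogene pigs first). The lowest P1 pig, at 0 reads, was within the P28 values. It was lower at P28 at the thresholds of the study, with an edgeR adjusted p of 0.275, and no fold is given because P28 had 1 read in all.

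The largest count among these 10 junctions belonged to chr6:88268086-88279235 of locus 5, with 166 reads in the 23 pigs. It had 18, 14, 7, 0, 0 and 0 reads in P1 and 18, 16, 0, 8 and 10 in P28. The 3 cd pigs of P1, P3 and P7 were all at 0, and 2 of the 3 cd pigs of P28 had 8 and 10 reads, both from libraries with few single counts. After scaling its mean was 1.89 ± 2.33 reads per 10000 in P1 (SD, n = 6) and 3.11 ± 2.68 in P28 (SD, n = 5), an edgeR adjusted p of 0.276. No fitted fold is given, since the 3 cd pigs of P1 were all at 0.

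The junction chr7:33619020-33628225 of locus 7 had no read in P1 and 0, 0, 2, 0 and 18 in P28, so 1 pig carried it. The 18 reads were from a cd library with few single counts, and the other 4 P28 pigs had 2 reads in all (edgeR adjusted p = 0.275 with all pigs). Also at locus 5, chr6:88173912-88196465 had 0, 6, 7, 3, 0 and 7 reads in P1 and 0, 0, 1, 0 and 0 in P28 (edgeR adjusted p = 0.287), again with 1 read in all at P28.

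Further junctions had no read in any P28 pig. At locus 3, chr7:91949364-91952828 had 2, 4, 1, 5, 0 and 0 reads in P1. At locus 8, chr1:181349907-181353955 had 0, 1, 0, 0, 8 and 2, and chr1:181057330-181066687 had 3, 4, 2, 0, 1 and 0. At locus 7, chr7:33976240-33980700 had 2, 6, 0, 1, 0 and 3.

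For these 4 junctions no fold is given, because the mean of both ages was under a floor of 3 reads per pig. The same holds for the remaining 2. At locus 9, chr3:109726110-109732253 had 1, 4, 4, 0, 4 and 3 reads in P1 and 1, 0, 0, 0 and 0 in P28 (edgeR adjusted p = 0.324). At locus 1, chr14:57786740-57792588 had 0, 3, 1, 0, 0 and 0 in P1 and 2, 0, 0, 0 and 9 in P28 (edgeR adjusted p = 0.334), where the 9 reads were from a cd library with few single counts.

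The members with the most reads in each locus did not pass the threshold, apart from the locus 5 junction above. At locus 1, chr14:57886068-57894112 had 2 to 11 reads in P1 (median 3.5) and 7, 7, 1, 20 and 0 in P28, with a log2 change of -0.02 (SE 0.84, adjusted p = 1.00). At locus 3, chr7:91964457-91969641 had 1 to 12 reads in P1 (median 5) and 20, 9, 5, 24 and 6 in P28, with a log2 change of 0.96 (SE 0.85, adjusted p = 0.699). It had a read in every P1 and P28 pig.

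At locus 6, chr6:96538671-96541892 had 4 to 19 reads in P1 (median 10) and 10, 0, 5, 0 and 0 in P28. Its log2 change of -1.65 (SE 0.90, adjusted p = 0.448) did not pass the threshold, and 3 of the 5 P28 pigs were below all P1 pigs. At locus 4, chr10:59670833-59674438 had 0 to 11 reads in P1 and 4, 4, 4, 6 and 8 in P28, with a log2 change of 0.04 (SE 0.78, adjusted p = 0.997). The scaled mean of this junction was lower in P28 than in P1, so here too the fitted sign is opposite to that of the means.

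At locus 2, chr7:73258086-73260894 had 0 to 12 reads in P1 (median 8.5) and 4, 1, 10, 6 and 0 in P28, with a log2 change of -0.40 (SE 0.92, adjusted p = 0.924). At locus 10, chr13:90959930-90963935 had 1 to 12 reads in P1 (median 3) and 6, 13, 0, 0 and 0 in P28, with a log2 change of -0.62 (SE 0.99, adjusted p = 0.876). Its 3 cd pigs of P28 had none. After scaling, its mean was higher in P28 than in P1. The fitted sign, with company as covariate, is thus opposite to that of the means. The leading members of loci 7, 8 and 9 had adjusted p-values of 0.766, 1.00 and 0.906 in this comparison.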

How the data were processed

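The authors aligned the reads with STAR 2.7.9a to Sscrofa10.2, called back-splice junctions with CIRCexplorer2 and deposited raw back-spliced read counts per junction, without a filter or normalization. MultiQC 1.11 is also named per the labels. Removal of duplicate reads is not given in the sources used here, so a molecule may be counted more than once, and floors cover counting error only. Labels place each library by age, company and round. For batch cd the column names give the age, and their numbers 4 to 6 only tell the 3 pigs of an age apart. The gene counts of batch cd, deposited by the authors, were used only to check the tissue. That table stops within chromosome 2 and an incomplete last line was dropped. The miRNA table was not used.

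The 3 junction tables were joined on the junction name. Starts in the files appear to count from 0, since exon-sized stretches were multiples of 3 bases in 37.5% of 8082 cases when counted so, against 31.7% and 30.8% with 1 or 2 bases over, and 1 was added to each start printed. Loci follow the rule in the opening of the results, and the members, lists and tests were chosen with earlier results of these data known. Named are all loci, the member with the most reads and the splice sites with the most partners per locus, and the 10 members with the smallest p in P1 versus P28 at the study's thresholds. For top acceptors, ties were broken by reads.

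Tests used R 4.3.3 and edgeR 4.0.16 (quasi-likelihood, TMM, all back-spliced reads as library size, the 4 ages in one fit, company as covariate, Benjamini-Hochberg over all bins or junctions), with limma 3.58.1 and DESeq2 1.42.0 as alternatives. The common dispersion was 0.648 for bins and 1.09 for junctions, at a median of 3 and 1 reads per pig, so single junctions are measured with low precision. TMM factors of the bins ranged from 0.812 to 1.44. P-values measure the spread between pigs within a company. Tables were prepared in Python 3.11.15 with pandas 2.3.3 and plots with matplotlib 3.10.9. The fits were tested on simulated counts with known changes. Alternatives covered normalization, test, filter, company, RNase R libraries, the left-out pig, the replicate number as a block, the ages fitted, the junctions summed, the bins and the omission of single pigs. Removing the 5 cd libraries with few single counts was an alternative chosen after seeing the data.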

Additional observations from a re-analysis of the deposited data

How the results depend on the processing

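No locus was called at an adjusted p under 0.05 in any comparison under any of the 39 alternatives (38 over the 4 ages), and at an unadjusted p under 0.05 at most 3 loci were. The lowest adjusted p of a locus was 0.105, locus 4 over the 4 ages with all junctions of the bin. In P1 versus P28 the sign held at loci 1, 6, 8 and 9 in all alternatives and turned at the others. Where it held, the log2 change ran from 0.08 to 0.33 at locus 1, -0.57 to -0.19 at locus 6, -0.97 to -0.44 at locus 8 and 0.19 to 0.52 at locus 9. At locus 2 the log2 change was -0.039 with the TMM factors of the junctions, -0.32 in Novogene pigs, -0.0015 without RNase R libraries, -0.074 with 24 pigs, -0.027 with only the 2 ages compared, -0.016 without the 5 cd libraries with few single counts, and -0.17 to 0.20 with 1 pig left out, below 0 without P1 cd pig 4, P28 cd pig 4 or P28 cd pig 5. At locus 5 it was -0.014 with the TMM factors of the junctions, -0.061 with limma voom, -0.016 without the 5 libraries and -0.14 to 0.20 with 1 pig left out, below 0 without P28 cd pig 6. At locus 10 it was -0.11 without RNase R libraries, -0.12 with 24 pigs, -0.012 without the 5 libraries and -0.034 to 0.22 with 1 pig left out, below 0 without P28 Novogene pig 3. It was -0.056 at locus 4 and -0.12 at locus 7 in Novogene pigs, -0.24 at locus 7 without the 5 libraries and -0.045 at locus 3 with all junctions of the bin. The cause was not tested.

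Of members called in P1 versus P3, P7 and P28 (17, 11 and 15), 0, 0 and 0 passed adjustment over all junctions. DESeq2 called 6, 2 and 7, no filter on low counts 32, 17 and 30 of 1173 tested, and a filter of at least 10 counts in at least 6 pigs 0, 0 and 1 of 3 tested. Novogene pigs alone gave 10 in P1 versus P3, and cd pigs alone 10, 3 and 3. Leaving out single pigs gave 9 to 21, 8 to 13 and 12 to 24. In P1 versus P3 the count was 9 without P1 cd pig 6 or P7 Novogene pig 2, 10 without P1 cd pig 5, and 11 without P3 cd pig 4 or 5 or P7 cd pig 6, and in P1 versus P28 it was 24 without P28 Novogene pig 2. With the replicate number as a block, 11 and 6 were called in P1 versus P3 and P7. The deviations of same-numbered pigs correlated with a median r of 0.00246 over 33 pairs (0.00413 over 66 others). At such low counts a pairing could go unseen, so whether the numbers pair the pigs was not settled.

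Among the 10 densest bins, 5 loci remained with bins shifted by 250000 bases and 6 with bins of 1000000 bases. In other rules 7 to 10 remained.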
